A study of Mus musculus with 47 samples.

Results

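The 3 genes of the albumin cluster, Alb, Afp and Afm, and their relative Gc were followed through the histone mark maps of control and Ezh1/Ezh2-deficient mouse liver. The 4 genes were chosen by name and placed by their mm9 gene spans in the GENCODE M1 annotation, which lists 22367 protein-coding genes. Control livers came from floxed Ezh2 f/f mice and the knockout livers (E1/E2-KO, DKO in the labels) from mice labelled Ezh1-/-, EZH2f/f, AC+, where AC is the Alb-Cre transgene. All mice were 7 weeks old, and males and females were kept apart, which gives 4 groups (control male, control female, E1/E2-KO male, E1/E2-KO female). Ezh1 was missing from every cell of the knockout animals, while Cre driven by albumin regulatory sequence removes Ezh2 from hepatocytes, so that the other cells of the liver keep it. The labels list 47 samples, which are 4 livers for each mark in each group and 3 in the case of E1/E2-KO female H3K4me1. For each mark and group the reads of the livers had been joined before peak calling, so that the data are 12 lists of genomic intervals. Each value below is therefore a single value per group, with no replicate, no error and no test, and the read depth behind each list is unknown.

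H3K27me3 is the mark that Ezh1 and Ezh2, the catalytic subunits of Polycomb repressive complex 2, place on silent genes. H3K27ac marks active promoters and enhancers, and H3K4me1 marks enhancers more broadly. Albumin, the main plasma carrier of the adult (Alb), alpha-fetoprotein, its fetal counterpart (Afp), afamin, a carrier of vitamin E (Afm), and the vitamin D binding protein (Gc) form a gene family that arose by duplication. Hepatocytes make all of these proteins, but Afp is transcribed at a high level in fetal liver and falls to a very low level after birth, whereas Alb, Afm and Gc stay on in the adult. Enhancers that act on Afp are known to lie in the stretch between Alb and Afp, and Alb has an enhancer far upstream of its start.

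On chromosome 5, Alb spans chr5:90889915-90905629, Afp chr5:90919740-90937933 and Afm chr5:90947958-90982569, all on the plus strand. Gc spans chr5:89846549-89886790 on the minus strand. All coordinates are mm9. The bases just upstream of each start are shown because the marks below are placed relative to these promoters. They were read 5′ to 3′ on the strand of the gene, from 250 to 21 bases before the GENCODE start for Alb, Afp and Afm. For Gc they run from 250 to 141 bases before it, since RefSeq places the Gc start 133 bases further upstream. Capitals mark CCAAT, or ATTGG where it reads on the other strand, the letters of the CCAAT box, a common promoter element.
Alb promoter, chr5:90889665-90889894: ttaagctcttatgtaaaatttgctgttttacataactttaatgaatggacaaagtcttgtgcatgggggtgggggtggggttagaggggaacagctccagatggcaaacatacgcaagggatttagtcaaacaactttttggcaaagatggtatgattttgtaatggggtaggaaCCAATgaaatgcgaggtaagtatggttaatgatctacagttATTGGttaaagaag
Afp promoter, chr5:90919490-90919719: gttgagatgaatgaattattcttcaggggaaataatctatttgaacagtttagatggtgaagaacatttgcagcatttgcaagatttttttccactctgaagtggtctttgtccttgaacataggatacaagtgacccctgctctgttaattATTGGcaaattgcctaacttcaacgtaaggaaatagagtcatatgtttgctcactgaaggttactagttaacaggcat
Afm promoter, chr5:90947708-90947937: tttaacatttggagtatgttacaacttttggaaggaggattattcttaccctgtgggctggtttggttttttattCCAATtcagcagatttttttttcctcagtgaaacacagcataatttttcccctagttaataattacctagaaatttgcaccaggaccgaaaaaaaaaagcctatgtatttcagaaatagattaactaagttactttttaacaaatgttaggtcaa
Gc promoter, chr5:89886931-89887040: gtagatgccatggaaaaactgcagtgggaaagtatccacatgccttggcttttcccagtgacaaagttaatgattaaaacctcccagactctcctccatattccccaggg
CCAAT occurred on either strand in the 250 bases before the start of Alb, Afp and Afm and in 35.0% of 22367 such promoters. It stood 75 to 71 bases before the start of Alb and, on the other strand, at 34 to 30. Before Afp it stood at 98 to 94 bases on the other strand, and before Afm at 175 to 171. The TATA box letters TATAAA, on either strand, were found in the 250 bases before Afp and Afm, closer to the start than the bases shown, and in 12.3% of promoters. None of these matches overlapped another, and a match describes letters only. The promoters were poor in CpG. The ratio of observed to expected CpG in the 1 kb around the start was 0.316 for Alb, 0.397 for Afp, 0.209 for Afm and 0.180 for Gc, against a median of 0.549 over all genes.

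H3K27me3 separated Afp from the other 3 genes. In control male and control female liver, 0% of the bases of Alb, Afp, Afm and Gc lay inside an H3K27me3 region. In both knockout lists, male and female, 100% of Afp lay inside one region. With only the widest 50% of regions of each list kept, Afp was at 0% in E1/E2-KO males, whose 28.8 kb region is narrower than the median of its list, and at 100% in E1/E2-KO females. Alb was at 0% in E1/E2-KO males and 2.73% in E1/E2-KO females, and Afm and Gc were at 0% in both. Afp was thus the only one of the 4 with at least 50% of its span inside such a region, in either knockout list, and none of the 4 reached that in a control list. Over all protein-coding genes that share was 29.9% in control males, 29.8% in control females, 32.5% in E1/E2-KO males and 28.7% in E1/E2-KO females. Afp was therefore listed under the repressive mark over its whole length in the livers whose hepatocytes lack the enzymes that place it, and not in either control list. Over the genome, H3K27me3 regions covered 766 Mb in control males, 728 Mb in control females, 750 Mb in E1/E2-KO males and 707 Mb in E1/E2-KO females. The paper cites a global reduction of the mark in knockout hepatocytes, which these totals do not show. The lists hold no amount of mark, so a newly listed region is not a measured gain of H3K27me3. The Ezh1 and Ezh2 deletions themselves cannot be checked in interval lists.

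**Figure D1:**
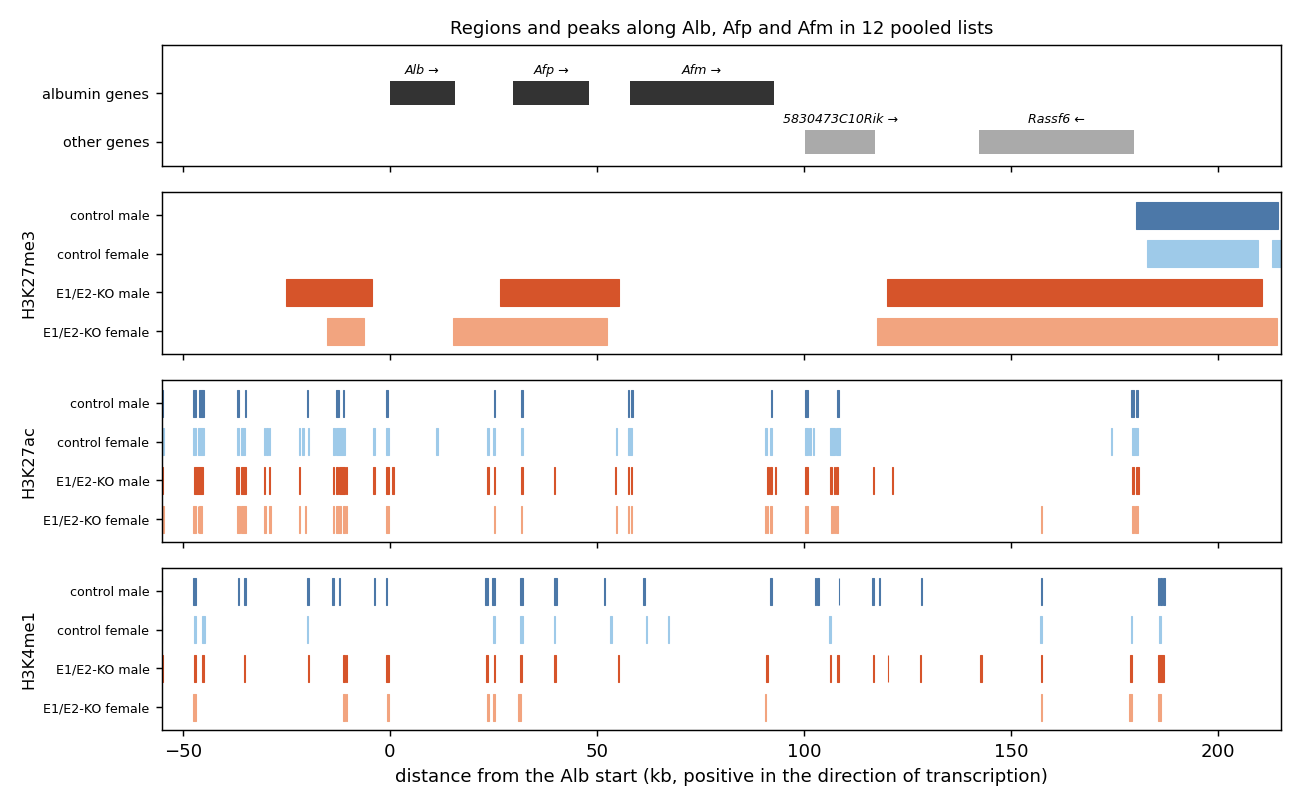
The horizontal axis gives the distance from the Alb start in kb, with genes on top and, below, the H3K27me3 regions, H3K27ac peaks and H3K4me1 peaks of each pooled list as coloured bars (narrow peaks are drawn at a minimum line width). The 3 stretches of H3K27me3 in the E1/E2-KO lists lie upstream of Alb, over Afp and over Rassf6, while Alb and Afm are left almost free.

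A coverage higher by 25 percentage points or more than in the control of the same sex was seen for 1 of the 4 genes, Afp, against 9.86% of all genes in males and 6.29% in females. In both sexes together it was 1 of 4 against 3.32%. A fall of that size was seen for none of the 4, against 6.07% of genes in males and 7.59% in females. The pattern of Afp, with 0% in both control lists and 95% or more in both E1/E2-KO lists, was shared by 153 genes, or 0.684%. Among the 7507 genes that, like all 4 here, had no H3K27me3 in either control list and an H3K27ac peak within 10 kb in every group, 12.1% were higher by 25 points in males, 4.96% in females and 4.21% in both. The pattern of Afp was seen for 120 of these 7507 genes, or 1.60%. Between males and females none of the 4 differed by 25 points. Over all genes, coverage was higher in control males than in control females by that much for 6.38% and lower for 5.28%. Within E1/E2-KO liver it was higher in males for 2470 of the 22367 genes and lower for 4.76%.

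**Figure D2:**
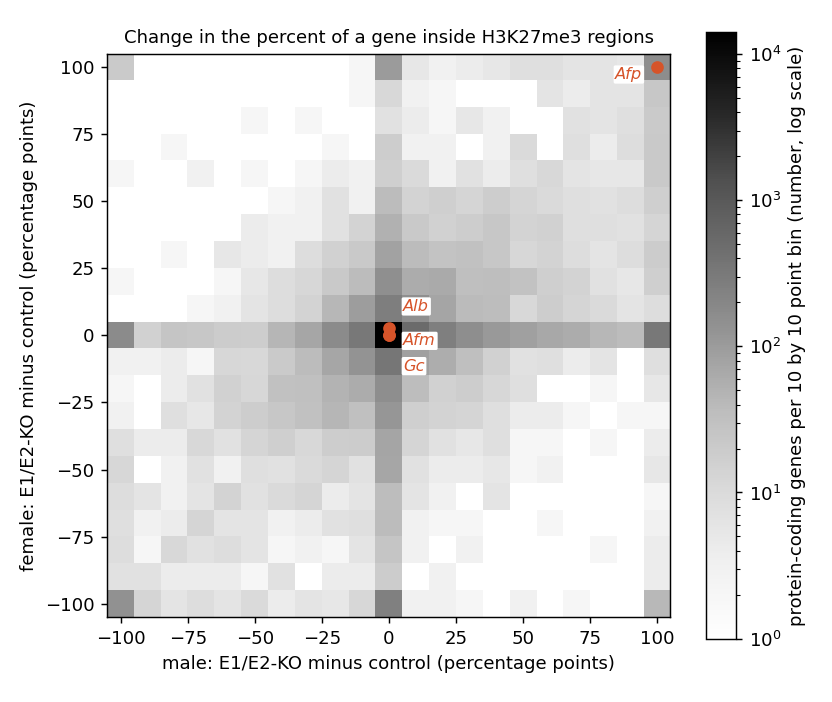
The change in the percent of each gene inside H3K27me3 regions, E1/E2-KO minus control, is plotted for males (horizontal) and females (vertical) in percentage points, with the grey scale giving the number of protein-coding genes per bin on a log scale. Afp sits in the corner at 100 points in both sexes, and Alb, Afm and Gc sit at or near 0.

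The region over Afp ended before Afm in both knockout lists and differed between them on the side of Alb. In E1/E2-KO males it spanned 28.8 kb (chr5:90916401-90945200), from 3339 bp before the Afp start to 2757 bp before the Afm start. In E1/E2-KO females it spanned 37.2 kb (chr5:90905201-90942400), from 14539 bp before the Afp start to 5557 bp before the Afm start. The male region kept clear of Alb by 10771 bp. The female region filled the whole stretch between Alb and Afp and took in the last 429 bp of Alb, which is the 2.73% given above. The stretch common to both was 26000 bp, which is 90.3% of the male and 69.9% of the female region. Edges were set in windows of 400 bp. Reads could be placed in the region over Afp. Of all 50-base sequences that start inside it, 98.9% in the male and 96.7% in the female occur once in the genome. Inside Afp the share was 99.1%. It was lower inside Alb (94.6%), Gc (81.2%) and Afm (68.8%), and its part in their contrast with Afp was not tested.

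A shorter stretch lay upstream of Alb in both knockout lists. It ran from 25.1 to 4.31 kb before the Alb start in E1/E2-KO males (20.8 kb, chr5:90864801-90885600) and from 15.1 to 6.31 kb in E1/E2-KO females (8.8 kb, chr5:90874801-90883600). Neither this stretch nor the one over Afp met any region of a control list. The nearest control region upstream of Alb was 63.5 kb away in males and 79.9 kb in females. In the 192.655 kb that hold the cluster and 50 kb on both sides, H3K27me3 covered 0 kb in both control lists, 72.2 kb or 37.5% in E1/E2-KO males and 71.0 kb or 36.8% in E1/E2-KO females.

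Downstream of Afm the next gene, 5830473C10Rik, was at 0% in all 4 lists, and Rassf6, a gene of the RASSF family, went from 0% in both controls to 100% in both E1/E2-KO lists. The region over Rassf6 was 90.4 kb wide in E1/E2-KO males and 96.4 kb in E1/E2-KO females, and it ran on beyond the Rassf6 start to where both control lists already had regions. Upstream, the nearest coding gene, Gm9958, was at 0% in all 4 lists. Afm was thus bounded on both sides by knockout regions that stopped short of it. Around the cluster and Gc together, 6 of the 17 other genes within 500 kb were at least 50% covered in control males and in control females, 8 in E1/E2-KO males and 6 in E1/E2-KO females. Of these neighbours, 2 were higher by 25 points in males (Rassf6 and Cxcl2) and 1 in females (Rassf6), and 1 was lower in females (Cxcl3), next to the shares over all genes given above.

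Gc had other surroundings. The nearest H3K27me3 region to its start lay 60.4 kb upstream in control males and 60.8 kb in control females, over the start of Npffr2, which codes for a neuropeptide FF receptor. These regions measured 13.6 and 12.8 kb and covered 7.72% and 7.01% of Npffr2. In the E1/E2-KO lists Npffr2 was at 0%, and the nearest region was 287 kb from the Gc start in males and 372 kb in females. On the other side, Slc4a4, a bicarbonate transporter gene, was 0% covered in both controls, 20.6% in E1/E2-KO males and 3.56% in E1/E2-KO females.

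**Figure D3:**
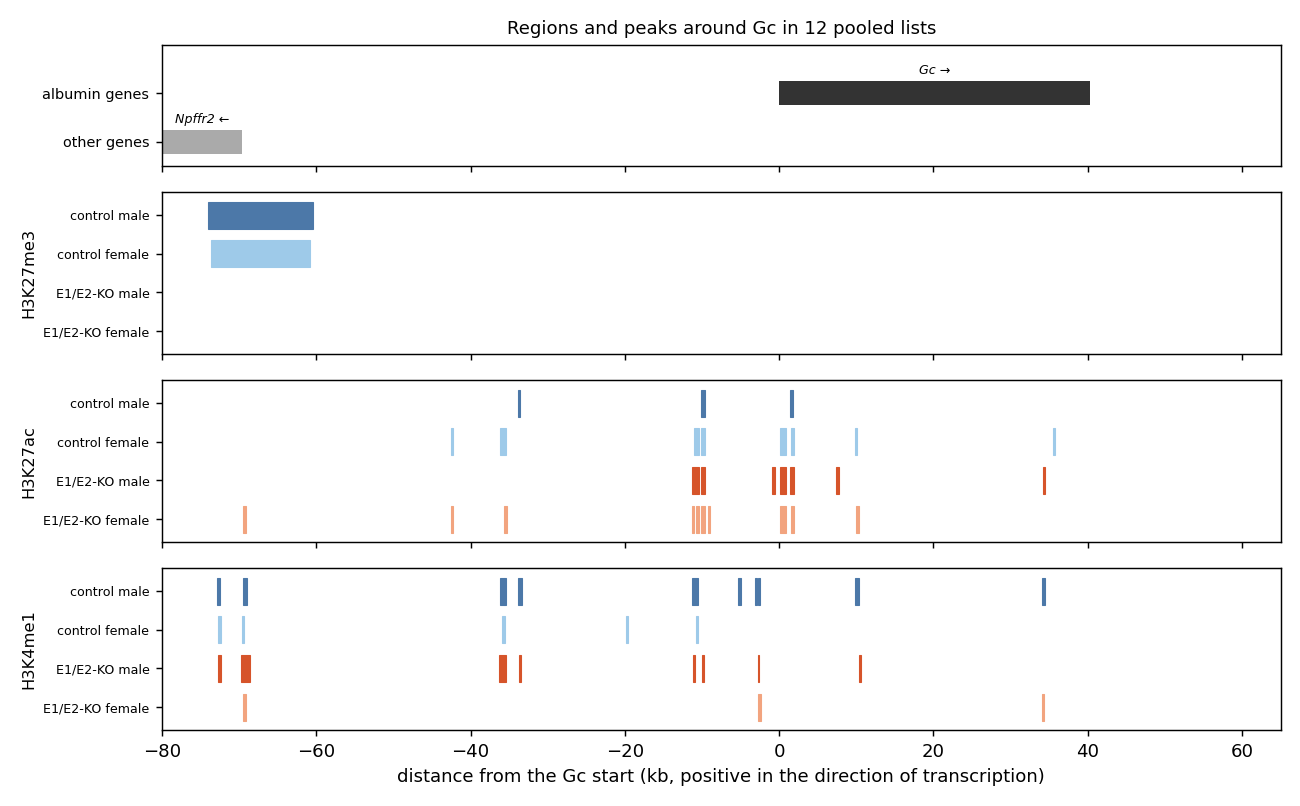
The horizontal axis gives the distance from the Gc start in kb, positive into the gene, with the same bars for each pooled list as in the map of the cluster. H3K27me3 bars appear only in the control rows, between -74.0 and -60.4 kb over the Npffr2 start, and H3K27ac peaks at 1.68 and -9.85 kb are present in every group.

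H3K27ac was listed near all 4 genes in every group, including Afp. A peak lay within 10 kb in all 4 lists for 4 of 4 genes, against 59.5% of all genes. With only the widest 50% of peaks kept, Afp had none in control males, and within the gene span alone Alb had none in control males and E1/E2-KO females. The number of peaks within 10 kb of Alb was 2 in control males, 5 in control females, 5 in E1/E2-KO males and 2 in E1/E2-KO females. Alb was thus equal in control females and E1/E2-KO males and low in the other 2 groups, but within 50 kb the numbers were 13, 20, 21 and 19, with control males alone low. For Afp the numbers in that order were 3, 5, 6 and 4. For Afm they were 4, 7, 7 and 7, and for Gc 2, 5, 6 and 5. Control males were lowest or tied for lowest for all 4 genes. The control male H3K27ac list was also the shortest, with 29359 peaks against 49702 in control females, 55930 in E1/E2-KO males and 51253 in E1/E2-KO females, and its part in these differences was not tested. The median over all genes was 1 peak in control males and 2 in each other group.

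**Figure D4:**
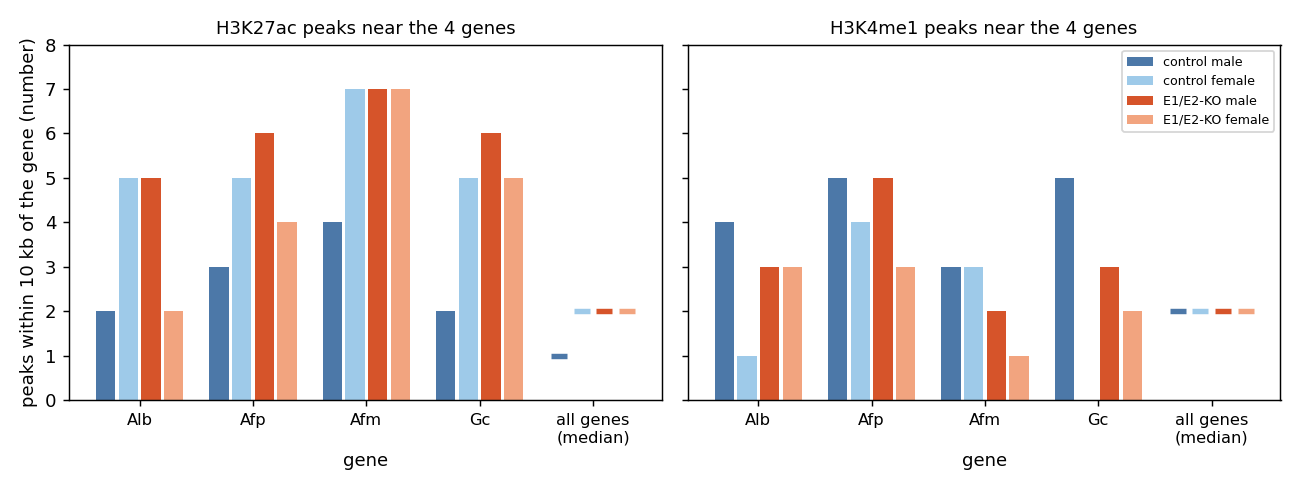
Bars give the number of H3K27ac peaks (left) and H3K4me1 peaks (right) within 10 kb of each gene in the 4 pooled lists, and short lines give the median over all protein-coding genes. Afm has the most H3K27ac peaks in each group, with 4 to 7, and Gc has no H3K4me1 peak in control females.

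The starts differed among the genes. Alb and Afm had an H3K27ac peak within 1 kb of the start in all 4 groups, so 2 of 4 genes against 44.2% of all genes. The Alb promoter peak was centred at -0.611 kb from the start over the 4 lists. Its edge nearest the start was 349 bp away in control males, 295 bp in control females, 219 bp in E1/E2-KO males and 254 bp in E1/E2-KO females. E1/E2-KO males had a further peak 0.764 kb inside Alb. At Afm the acetylated site, joined over the lists, lay across the start, but only the control female peak held the start base. In each other group separate peaks lay on both sides of it. Gc had a peak 0.492 kb inside the gene in every group except control males, and peaks at 1.68 kb and -9.85 kb from the start in all 4. Afp stood apart. No list had an H3K27ac peak within 1 kb of its start, and the nearest peak began 1764 bp inside the gene in control males, 1802 bp in control females, 1745 bp in E1/E2-KO males and 1829 bp in E1/E2-KO females.

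The intragenic Afp site and a site upstream of Afp carried both active marks in all 8 lists of H3K27ac and H3K4me1. Their common cores are shown because they are the only stretches near Afp that every active list shares. The upstream core lies 4780 to 4508 bases before the Afp start, between Alb and Afp. The other lies 1829 to 1860 bases after the start, in an intron. On either strand together, CCAAT occurs 2 times in the upstream core and 0 times in the other.
Afp upstream core, chr5:90914960-90915232: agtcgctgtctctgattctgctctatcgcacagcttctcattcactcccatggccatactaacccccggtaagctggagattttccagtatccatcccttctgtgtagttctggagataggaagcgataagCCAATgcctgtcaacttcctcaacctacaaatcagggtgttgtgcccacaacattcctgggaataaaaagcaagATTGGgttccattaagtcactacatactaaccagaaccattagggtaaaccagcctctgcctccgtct
Afp intragenic core, chr5:90921569-90921600: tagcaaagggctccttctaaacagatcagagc
The intragenic core lay inside the H3K27me3 region of both E1/E2-KO lists. The upstream core lay inside the wider female region and outside the male one, which began between it and the Afp start. Active peaks therefore persisted in the lists where H3K27me3 covered Afp. Whether the marks sat on the same DNA or in different cells of the liver cannot be told apart in these lists.

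Active peaks were listed inside the new regions in the knockout lists. In the span of the male Afp region, H3K27ac peaks numbered 1 in control males, 2 in control females, 3 in E1/E2-KO males and 2 in E1/E2-KO females. H3K4me1 peaks there numbered 3, 3, 3 and 1 in that order. In the span of the female Afp region, H3K27ac peaks numbered 2, 3, 4 and 2 and H3K4me1 peaks 5, 3, 4 and 3, so that E1/E2-KO females had as many H3K4me1 peaks as control females there. In the male region upstream of Alb there were 3, 5, 5 and 6 H3K27ac peaks. Across the cluster window, 9 of 30 H3K27ac peaks and 9 of 19 H3K4me1 peaks of E1/E2-KO males touched an H3K27me3 region of that group. In E1/E2-KO females these were 6 of 26 and 5 of 8. In the control lists the count is 0 by construction, since they have no H3K27me3 region in this window.

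Within 10 kb of the genes, no active site was present in both E1/E2-KO lists and absent from both control lists, or the reverse. Farther out, in the stretch upstream of Alb, 1 site was in both E1/E2-KO lists only for H3K27ac and 2 for H3K4me1, and 1 H3K27ac site, ending 19.6 kb before the start, was in both control lists only. These sites were chosen after their values were seen. H3K27ac peaks from 10.6 to 10.3 kb before the Alb start, and H3K4me1 peaks with nearly the same limits, were present in E1/E2-KO males and females and in neither control. A second H3K4me1 site, 11.2 to 10.9 kb before the start, had the same distribution. Such H3K27ac peaks made up 8.10% of the E1/E2-KO male list and such H3K4me1 peaks 4.95%, and 118 H3K27ac peaks, or 0.211%, had both marks gained in this way at the same place. The bases common to the 4 peaks lie inside both upstream H3K27me3 regions and are shown here.
Alb far upstream core, chr5:90879351-90879567: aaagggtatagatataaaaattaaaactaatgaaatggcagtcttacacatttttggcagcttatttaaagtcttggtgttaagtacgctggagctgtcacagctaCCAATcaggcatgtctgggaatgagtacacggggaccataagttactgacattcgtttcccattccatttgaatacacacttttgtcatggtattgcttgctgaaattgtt
A broad H3K27ac site next to it, from 12.9 to 10.9 kb before the start, was present in all 4 groups. The Alb-Cre transgene carries albumin regulatory sequence and is listed only for the knockout mice. Its effect on reads mapped upstream of Alb and that of the missing enzymes cannot be told apart.

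H3K4me1 peaks near the genes were counted in the same way. A peak within 10 kb was present in all 4 lists for 3 of 4 genes, against 66.3% of all genes, and Gc was the exception with none in control females, where the nearest began 10454 bp from the start. Within 50 kb all 4 genes had a peak in each list. With only the widest 50% of peaks kept, Afp alone had a peak within 10 kb in all 4 lists. Afm then had none in any list, and Alb had none in control females. No gene had an H3K4me1 peak within 1 kb of the start in all 4 groups, against 28.0%. The numbers within 10 kb, in the order control male, control female, E1/E2-KO male, E1/E2-KO female, were 4, 1, 3 and 3 for Alb. They were 5, 4, 5 and 3 for Afp, 3, 3, 2 and 1 for Afm, and 5, 0, 3 and 2 for Gc. Within 10 kb Afp and Afm were lowest in E1/E2-KO females, and Alb and Gc in control females. Within 50 kb Alb (14, 8, 12 and 7) and Gc (11, 3, 6 and 2) were lowest in E1/E2-KO females. The median over all genes was 2 in each group. Among the H3K4me1 lists, that of E1/E2-KO females was the shortest (51417 peaks, from 3 livers), followed by that of control females (54798). E1/E2-KO males had 67913 peaks genome-wide and control males 69797. The part of list length in which group was lowest was not tested. Of the 7 H3K4me1 sites of Afp, with overlapping peaks of the lists joined, 2 were in all 4 lists and 3 in 1 list only. Of the 9 sites of Afm, 0 were in all 4 lists and 9 in 1 list only. Over the genome, 28.4% of the H3K4me1 sites were in all 4 lists and 37.4% in 1 list only. At the Alb promoter, an H3K4me1 peak was present in control males and both E1/E2-KO groups and not in control females, where the nearest peak was 19.7 kb from the start.

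Peaks without a counterpart in the control of the same sex, or lost from it, were then counted. In males, 4 of 4 genes had a gained H3K27ac peak within 10 kb, against 47.5% of all genes, and 0 of 4 a lost one, against 9.54%. In females, 1 of 4 had a gained peak, Gc, against 28.7%, and 4 of 4 a lost one, against 31.8%. In lists cut to equal length, 4 genes had a gained and 3 a lost H3K27ac peak in males, and 3 a gained and 4 a lost one in females. The counts of the sexes were then closer. That cut kept the 29359 widest peaks of each list, so that a dropped narrow counterpart can itself make a gained or lost call. The shares over all genes in this paragraph are those of the main settings. After merging peaks within 1 kb, 4 genes had a gained and 0 a lost H3K27ac peak in males. In females, 0 then had a gained and 2 a lost one. With the main settings, Alb lost 3 H3K27ac peaks in females and gained 3 in males. For H3K4me1, 3 of 4 genes had a gained peak in males, against 44.6%, and 4 of 4 a lost one, against 45.7%. In females these were 4 of 4, against 39.8%, and 2 of 4, against 46.4%. The windows of Alb and Afp overlap, so that the 1 H3K27ac peak Afp lost in females is also among the 3 of Alb. The peak at that place in males is counted as gained for both. The windows of Afp and Afm overlap as well. In males, the 1 H3K4me1 peak gained and the 1 lost for Afp are also counted for Afm, as is 1 of the 3 H3K27ac peaks gained for Afp. In females, the 1 H3K4me1 peak gained for Afp is also counted for Alb. Of the 2 H3K4me1 peaks lost for Afp in females, 1 is also counted for Afm.

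Other genes of the hepatocyte were set beside the members. Of 18 genes for plasma proteins, 1 was at least 50% covered by H3K27me3 in control males and 1 in control females, against 11 in E1/E2-KO males and 6 in E1/E2-KO females. Over all genes the covered shares were 29.9%, 29.8%, 32.5% and 28.7% in that order, and they stand beside the lists that follow as well. Coverage was higher by 25 points for 12 of the 18 in males and 5 in females, against 9.86% and 6.29% of all genes. Fga, Fgb and Fgg lie close together on chromosome 3 and were all at 100% in E1/E2-KO males, so that they need not be separate cases. Rbp4 (the retinol carrier) and Fgb (a fibrinogen chain) went, like Afp, from 0% in both controls to 100% in both E1/E2-KO lists, and Plg (plasminogen) from 0% to 97.1% and 88.9%. Serpinc1 (antithrombin) and Kng1 (kininogen) were at 0% throughout, like Afm and Gc, and Trf (transferrin) was below 3% in each list. All 18 had an H3K27ac peak within 10 kb in every group, against 59.5% of all genes, at the same place or elsewhere.

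Among 11 regulators known to act on the albumin genes, 2 were at least 50% covered in each control list, 7 in E1/E2-KO males and 5 in E1/E2-KO females. Hnf4a, a nuclear receptor of the hepatocyte, was at 0%, 0%, 89.1% and 71.0%, in the order control male, control female, E1/E2-KO male, E1/E2-KO female. Zbtb20, a repressor of Afp in adult liver, was at 0% in all 4 lists, and the pioneer factor genes Foxa1 and Foxa2 were at 100% in all 4. All 11 had an H3K27ac peak within 1 kb of the start in every group, against 44.2% of all genes. Whether it was the same peak was not tested.

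Of 8 genes that are active in fetal liver and fall after birth, Afp included, 5 were at least 50% covered in each control list, 6 in E1/E2-KO males and 7 in E1/E2-KO females. Afp differed from the rest of this list in its controls. Igf2, a fetal growth factor gene, was at 100% in all 4 lists, and Lin28b, a fetal RNA-binding protein gene, was at 34.8% and 31.1% in the controls and 64.3% and 51.6% in E1/E2-KO males and females. Igf2bp3, another RNA-binding protein gene, differed from its controls by -53.6 points in males and -35.1 points in females. Gpc3, which is X-linked, was at 1.85% in control males and 0% in E1/E2-KO males, and at 98.1% in both female lists.

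**Figure D5:**
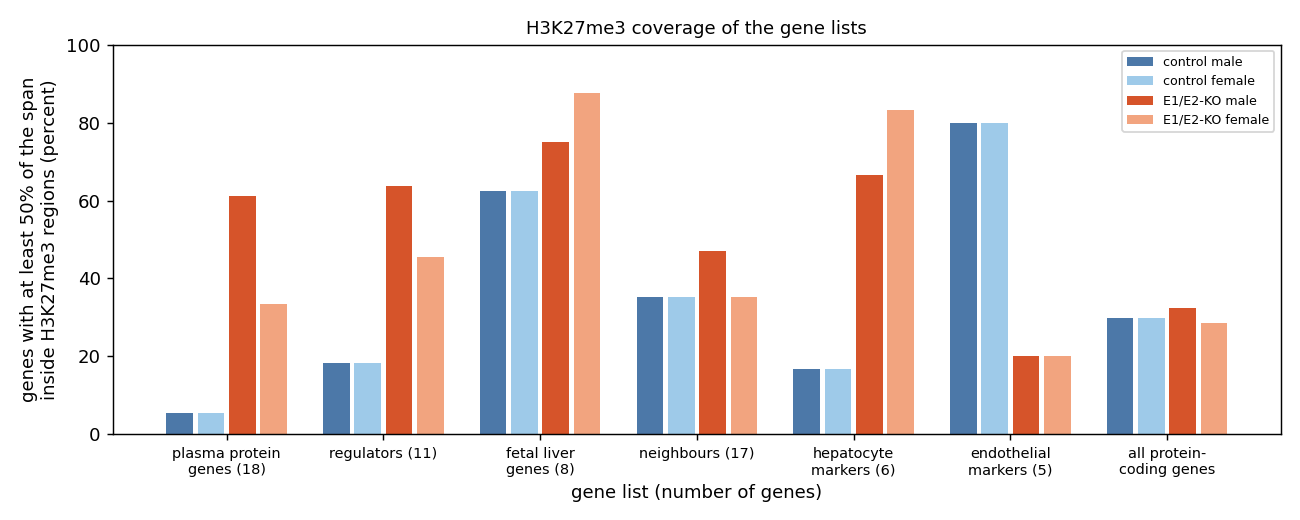
Bars give the percent of the genes of each list that had at least 50% of their span inside H3K27me3 regions, in the 4 pooled lists, beside the same for all protein-coding genes. The plasma protein genes, regulators and hepatocyte markers have taller bars in the E1/E2-KO lists than in the control lists, and the endothelial markers shorter ones.

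Markers of liver cell types were read in the same lists, and their coverage differed in direction. All 6 hepatocyte markers had an H3K27ac peak within 10 kb in every group, against 59.5% of all genes. At least 50% coverage by H3K27me3 was seen for 1 of these 6 in each control list, 4 in E1/E2-KO males and 5 in E1/E2-KO females. G6pc, a gluconeogenesis gene, went from 0% in both controls to 100% in both E1/E2-KO lists. Cps1, a urea cycle gene, stayed at 0%, and Cyp2e1, a cytochrome P450 gene, was at 0% in E1/E2-KO males and 100% in the other 3 lists. Of 5 endothelial markers, 4 were covered in each control list and 1 in each E1/E2-KO list, and Pecam1 went from 100% and 87.6% to 0% in both sexes, while Kdr stayed at 100% and Lyve1 at 0%. Of 5 Kupffer cell markers, 4 were covered in each list except that of E1/E2-KO females, with 3, and of 5 stellate cell markers 4 in each list. H3K27ac peaks within 10 kb of the endothelial markers summed to 8 in control males, 24 in control females, 31 in E1/E2-KO males and 32 in E1/E2-KO females. For the 5 Kupffer cell markers the sums were 0, 0, 1 and 1, with Cd5l, Marco and Timd4 at 0 throughout, and for the 5 stellate cell markers 1, 3, 4 and 7. The 5 genes of other tissues were all at least 50% covered in each list, and Myh6, Neurod1 and Myod1 had no H3K27ac peak within 10 kb. Pax6 had 0, 0, 4 and 4 such peaks and Gfap 1, 1, 3 and 2, in the same order. In whole liver, a change in the share of cells of a type and a change of the mark within those cells cannot be told apart, and the part of the cell mix in the coverage of Afp was not tested.

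The genes most like each member over the 12 lists were found by the mean absolute difference in the percent covered. For Afp these were Gpr37l1, Ctrb1 and Spon2, with mean differences of 0.690, 0.879 and 0.900 percentage points, all at 0% H3K27me3 in both controls and 100% in both E1/E2-KO lists. For Alb they were Ern1, Rbm17 and Tubb5, with 0.760 to 0.767 points. Chuk, Zbtb8os and Cyp2c70 came closest to Afm, with 0.224 to 0.272 points, and Adnp2, Fxr1 and Aass to Gc, with 0.234 to 0.306 points. All 9 genes nearest to Alb, Afm and Gc were at 0% H3K27me3 in each list.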

How the data were processed

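Chromatin of mouse liver was analysed by ChIP-seq for H3K27me3, H3K27ac and H3K4me1. Per the labels and the study's methods, the authors joined reads over the livers within each group and aligned them to mm9 (Bowtie2 2.3.2). H3K27me3 regions came from SICER 1.1 with windows of 400 bp and gaps of 2400 bp, and peaks of the other marks from MACS2 2.1.1. The deposited files hold interval positions in bp and no score, count or depth, so that neither a stricter caller threshold nor a test of replicates could be applied. Intervals were compared with GENCODE M1 genes and the NCBIM37 genome with Python 3.11.15 and NumPy 2.4.6. SICER ends were moved by 1 base to close the last window. H3K27me3 is given as the percent of a gene span inside regions (covered from 50%, changed from 25 percentage points), and H3K27ac and H3K4me1 as peaks that overlap the span with 10 kb on both sides by at least 1 bp, or 1 kb on either side of the start. A peak with no overlap in the other list was gained or lost. The overlap code was tested on simulated data. Figures were drawn with matplotlib 3.10.9. RefSeq starts (GRCm38.p6) were placed by matching their upstream bases. The 4 genes and all gene lists were chosen with earlier results of these data known. Genes were named by rule: the 4 genes, their nearest neighbours, the 3 genes of each list with the highest and the 3 with the lowest mean difference between E1/E2-KO and control, of which some are given, and the 3 most like each of the 4. Alternatives were other cut-offs, spans, distances and overlaps, only the widest intervals, merged peaks and lists of equal length. Some genes of the lists are not reported here.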

Additional observations from a re-analysis of the deposited data

Results flagged for a closer look

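The number of peaks within 10 kb changed in opposite directions in the sexes, E1/E2-KO against control, for 3 of the 4 genes. By mark this was 2 of 4 genes for H3K27ac, against 14.9% of all genes, and 2 of 4 for H3K4me1, against 15.1%. For Alb the H3K27ac difference was 3 peaks more in males and -3 in females, and the H3K4me1 difference was -1 in males and 2 more in females. For Afp the H3K27ac difference was 3 more in males and -1 in females. The windows of Alb and Afp overlap, and the peak behind the Afp value in females is also counted for Alb. For Gc the H3K4me1 difference was -2 in males and 2 more in females. Within 50 kb only Alb H3K27ac, of these 4 differences, kept opposite directions, with 13, 20, 21 and 19 peaks in control male, control female, E1/E2-KO male, E1/E2-KO female. There Afm H3K27ac (7, 13, 16 and 12) also had opposite directions, Afp H3K27ac (9, 13, 17 and 13) had no difference in females, and the H3K4me1 numbers of Alb (14, 8, 12 and 7) and Gc (11, 3, 6 and 2) were lower than control in both sexes. With the widest 50% of peaks kept, Gc H3K4me1 was at 1, 0, 0 and 0, with no difference in females. Alb H3K27ac (1, 3, 3 and 2), Afp H3K27ac (0, 3, 2 and 1) and Alb H3K4me1 (2, 0, 1 and 1) still had opposite directions there. Each value comes from 1 pooled list per group, and the difference between the sexes was not tested. For H3K27ac the control male list was the shortest of its mark, and for H3K4me1 the female lists were shorter than the male ones.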

How the results depend on the processing

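No paired analysis was possible because the lists were made from joined reads and hold no value for a single liver, and leaving out a liver was not possible for the same reason. Of the recomputed counts over the 4 genes, 72 stayed within 1.5 times the main count and 16 moved. Counts of 0 under both settings are among the 72, as are some that the setting could not change. Of the recomputed values of single genes, 34 were equal to the main value and 94 moved, nearly all of them peak numbers. The female H3K4me1 differences of Alb and Gc turned from higher to lower in the knockout within 50 kb. With the widest 50% of regions kept, the count of covered genes in E1/E2-KO males became 0, since the 28.8 kb region over Afp is narrower than that list's median of 31.6 kb, and Afp in E1/E2-KO females was still covered. With a cut-off of 25% of the gene, a change of 50 points or a span extended by 3 kb, Afp remained the one gene called. The first 2 settings could not alter a call, since the coverage of each gene was 0%, 2.73% or 100% in each list. The extension raised Alb to 15.8% in E1/E2-KO females. With the widest 50% of peaks kept, genes with an H3K4me1 peak within 10 kb numbered 1 in control females, 2 in E1/E2-KO males and 2 in E1/E2-KO females. Genes with a lost H3K27ac peak in males numbered 1 when a shared peak had to be overlapped by 50% and 3 in lists of equal length. Genes with a gained H3K27ac peak in females numbered 0 after merging peaks within 1 kb and 3 in lists of equal length, and genes with a lost one 2 after merging. Over the start base itself, H3K27ac lay at 0 genes in control males, 1 in control females, 0 in E1/E2-KO males and 0 in E1/E2-KO females, and H3K4me1 at 0 in each group. The cause of these other changes was not tested. Read depth is unknown, so that an absent peak is not an absent mark.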
